A study of Homo sapiens with 6 samples.

Results

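The integrated stress response was followed through 36 genes in HEK293 cells, a human embryonic kidney line in long use. The genes are ATF4 and genes known as its targets in amino acid synthesis, amino acid transport, tRNA charging and stress feedback. They were taken by symbol from a table of 63140 genes, and each symbol matched 1 line. All 36 passed the filter on low counts, which kept 16754 genes of the table. The study compared 3 libraries from cells given 100 nM GSK-A1 for 24 h with 3 libraries from cells given DMSO. GSK-A1 inhibits PI4KA, the lipid kinase that makes phosphatidylinositol 4-phosphate at the plasma membrane. The labels name no genetic change or second agent in either group, and the cells were confluent at treatment and grew in the same serum-containing medium in both groups. The labels call the replicates biological but do not say how the cultures were kept apart, so p-values measure the spread between these libraries. All 6 libraries carry the same lane label, which does not state a batch of culture or library preparation.

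In the integrated stress response, kinases that sense unfolded protein, amino acid shortage, heme shortage or double-stranded RNA phosphorylate the initiation factor eIF2. Bulk translation then slows while the ATF4 mRNA is translated more, so much of the control of ATF4 lies in its protein and not in its mRNA. ATF4 is a basic leucine zipper factor that binds DNA as a dimer, often with a C/EBP protein, and raises genes for amino acid supply together with genes that end the response.

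The dimer's known site joins a C/EBP part to an ATF part and is written TGATGNAAN. To show where the members carry these letters, the site was searched on both strands in the RefSeq promoter windows of GRCh38.p14, which run from 250 bases before to 50 bases after each start. Of the members, 31 had a window, with 47 windows in all, and PSPH, SHMT2, NUPR1, SLC7A11 and ALDH1L2 had none. The letters occurred in 9 of the 47 windows (19.1%), each from a different gene, against 3.61% of the 35116 full-length windows of all genes. Those 9 genes were CEBPG, ASNS, SLC3A2, GARS1, AARS1, NARS1, MARS1, CHAC1 and FGF21. The members were chosen as known ATF4 targets, so a share above that of all genes is no test of the site. The 6 matches lying wholly before a start are printed 5′ to 3′ on the strand of the gene, with the site or its reverse complement in capitals. Flanks are shorter where a longer stretch touched an annotated exon, but the shorter stretches of ASNS, GARS1, CHAC1 and AARS1 still touch one. For AARS1 that exon belongs to DDX19B.

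CEBPG, chr19:33374041-33374109, plus strand: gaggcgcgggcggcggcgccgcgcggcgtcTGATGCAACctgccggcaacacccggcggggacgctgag
ASNS, chr7:97872458-97872486, minus strand: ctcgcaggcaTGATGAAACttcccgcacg
GARS1, chr7:30594834-30594862, plus strand: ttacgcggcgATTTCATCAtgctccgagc
CHAC1, chr15:40953251-40953279, plus strand: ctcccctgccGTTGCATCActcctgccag
AARS1, chr16:70289676-70289704, minus strand: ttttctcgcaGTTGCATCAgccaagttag
FGF21, chr19:48755439-48755507, plus strand: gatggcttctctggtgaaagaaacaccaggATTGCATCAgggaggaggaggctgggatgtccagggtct

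CEBPG and ASNS were called higher with GSK-A1 and the other 7 of these genes were not called. Among the 12 members called higher, all of which had a window, 2 carried the letters. None of the 5 members called lower that had a window did. Of the 14 members with a window that were not called, 7 did. A match in a window is a description and not a shown binding site, and sites outside these windows were not searched.

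Library totals ran from 33040178 to 47777233 counts. Of the 8 genes listed as typical of HEK293 cells, 7 reached 1 CPM (the count of a gene relative to the library total, scaled by edgeR's TMM factors) in each library, and NEFM did not. Of these 7, edgeR called PAX2 lower (-0.43 ± 0.12; adjusted p = 0.0177) and EYA1 (0.31 ± 0.07; adjusted p = 0.00642), VIM (0.17 ± 0.04; adjusted p = 0.00423) and KRT8 (0.11 ± 0.04; adjusted p = 0.0373) higher. None of the 4 blood cell, 3 endothelial and 3 hepatocyte markers reached 1 CPM in any library (at most 0.176 CPM), and none was tested. Of the fibroblast markers COL1A1 and COL3A1 were detected, and COL3A1 fell from 9.69 ± 0.269 to 5.50 ± 0.281 CPM with GSK-A1 (SD, n = 3; log2 fold change -0.81 ± 0.08; edgeR adjusted p = 3.55e-06), while COL1A1 was not called (-0.14 ± 0.11; adjusted p = 0.396, groups overlapping) and DCN stayed under 1 CPM. In bulk RNA, fewer cells of a kind and less RNA per cell cannot be told apart, and the part of these marker changes in the results was not tested. GSK-A1 replicate 2 stood apart from GSK-A1 replicates 1 and 3 on the first principal component, at 16.6 against 5.24 and 5.09, with the DMSO libraries between -9.37 and -8.54. On the second component it was at 8.93 against -6.28 and -9.78, with the DMSO libraries at 0.741 to 4.71.

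With GSK-A1, 12 of the 36 members were higher and 6 lower by the rule under which a gene is called here, and 18 were not called (edgeR quasi-likelihood test, Benjamini-Hochberg adjusted p under 0.05 over all genes tested). Over all genes tested 22.9% were called, 12.0% higher and 10.9% lower. At an unadjusted p under 0.05, 35.8% of all genes passed, 18.1% higher and 17.7% lower. DESeq2 called 22.5% of the genes to which it gave an adjusted p, 14.1% higher and 8.46% lower. The members were more abundant than most genes, with a median level of 75.3 CPM against 18.4 CPM. Among all genes at a mean of at least 10 CPM, 29.1% were called, and 16 of the 30 members at that level were. This floor does not match the genes to the members in level, and the part of level in the contrast was not tested. The changes were small. Each of the 36 log2 fold changes was under 0.5 in size, as were those of 15596 of the 16754 genes tested. The median log2 fold change was 0.06 for the members and -0.01 for all genes, and the median size was 0.17 and 0.12. In 24 members the groups did not overlap, 16 with GSK-A1 above and 8 with it below, where 40.5% of all genes did not overlap.

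Scaling by upper-quartile factors gave 10 members higher and 7 lower, and brought the share of all calls that were higher from 52.3% to 33.3%. DESeq2 gave 13 higher and 5 lower, with 62.4% of all calls higher. Without GSK-A1 replicate 2, 20 members were called against 28.1% of all genes, and without DMSO replicate 1, 14 were called against 12.9%. Of the 18 called members, 14 were called in the same direction in each of 11 alternative fits. Those 14 were ATF4, CEBPB, CEBPG, MTHFD2, ASNS, CTH, SLC7A5, SLC38A2, TRIB3 and PPP1R15A, higher, and PHGDH, PCK2, SESN2 and DDIT4, lower. ATF5, SLC7A11, SARS1 and VLDLR lost their call in some fits. Both directions occurred in 5 of the 7 roles into which the members were sorted.

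**Figure D1:**
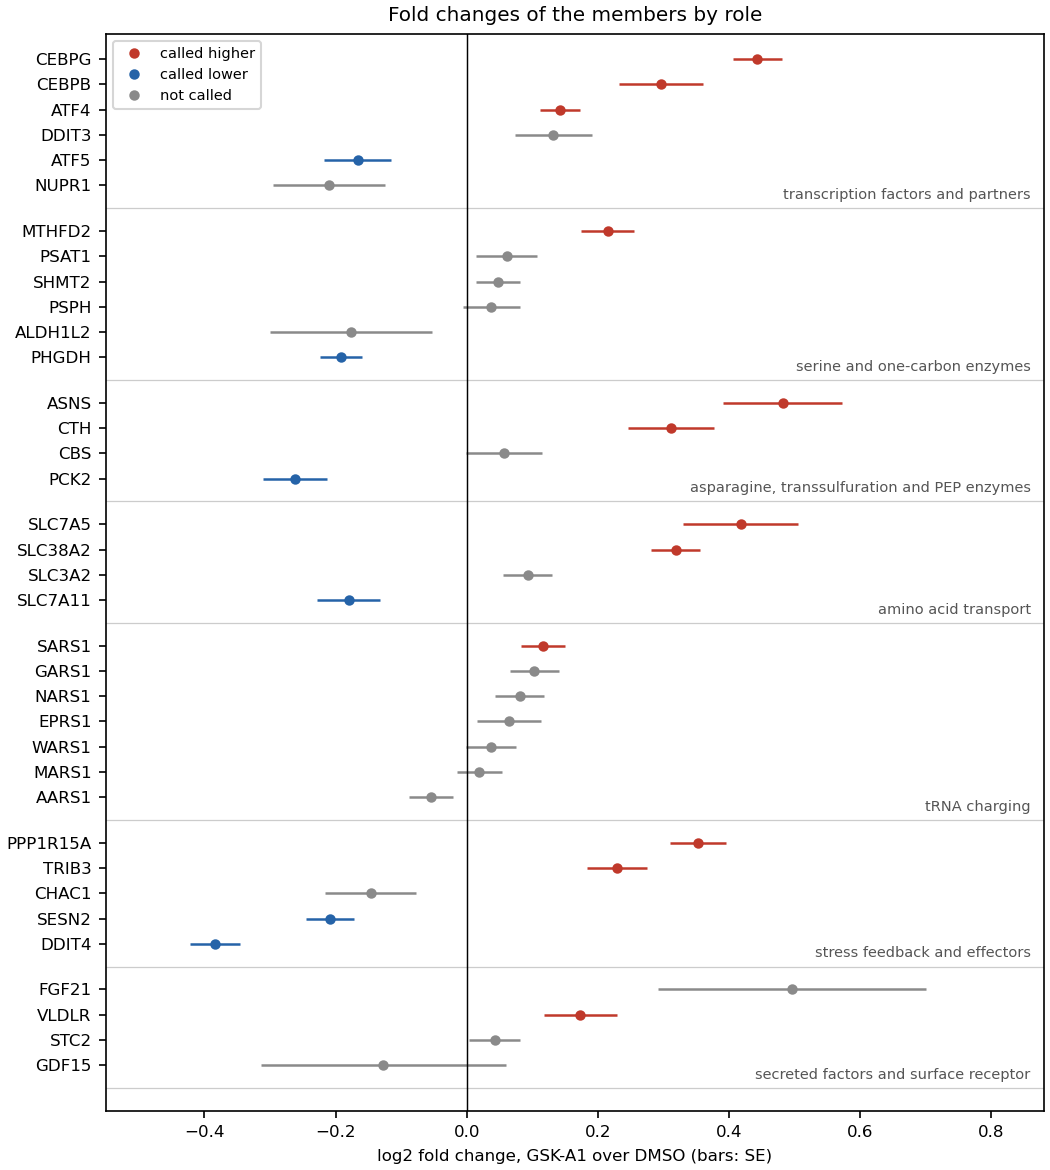
Log2 fold change of each member, GSK-A1 over DMSO, with its standard error as a bar, grouped by role (n = 3 libraries per group). Red points were called higher, blue points lower and grey points were not called. The points lie between -0.38 for DDIT4 and 0.496 for FGF21.

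The transcription factors were led by CEBPG, a C/EBP protein that pairs with ATF4. CEBPG (ENSG00000153879) measured 151, 151 and 150.3 CPM in the 3 DMSO libraries and 200.2, 215 and 199.8 CPM in the 3 GSK-A1 libraries, each in the order of replicates 1 to 3, as for all members that follow. Every GSK-A1 library was above every DMSO library, and GSK-A1 replicate 2 was the highest. The rise of 35.98% (log2 fold change 0.44 ± 0.04, SE; edgeR adjusted p = 8.04e-07) had the smallest p-value of the 36 members. CEBPB, a related factor, had 16.6, 15.2 and 14.5 CPM with DMSO and 18.2, 19.5 and 19.3 CPM with GSK-A1. Its rise of 22.8% (0.30 ± 0.06; edgeR adjusted p = 0.00348) also left no overlap between the groups.

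ATF4 mRNA itself (ENSG00000128272) was at 788, 788 and 796 CPM with DMSO and 891, 856 and 870.0 CPM with GSK-A1. This 10.4% rise (log2 fold change 0.14 ± 0.03; edgeR adjusted p = 0.00353) was small beside that of CEBPG, but each GSK-A1 library exceeded each DMSO library. Per kilobase of exon, ATF4 was the most abundant member, at 314 CPM per kb with DMSO. Other genes share 22.9% of the 50-base stretches in its longest transcript, and the pseudogene ATF4P3 alone shares 14.6%, so its count could miss or include such reads. ATF4 protein was not measured.

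ATF5, a leucine zipper factor of the same family, had 27.8, 27.2 and 27.2 CPM with DMSO and 24.8, 23.3 and 25.1 CPM with GSK-A1. The groups did not overlap, and the fall (log2 fold change -0.17 ± 0.05; edgeR adjusted p = 0.0277) was called, but not with DESeq2 (adjusted p = 0.0806), without a count filter (0.0524) or after removal of any of DMSO replicates 1 to 3 or of GSK-A1 replicate 1 (0.0694 to 0.103). NUP62, on the opposite strand at 203 CPM, covers 21.2% of its exonic length, and the strand setting of the counting is not given in the sources used here.

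DDIT3 encodes CHOP, the factor linked to cell death under lasting stress. Its level was 17.0, 16.7 and 17.3 CPM with DMSO and 19.4, 17.6 and 18.7 CPM with GSK-A1, without overlap but not called (log2 fold change 0.13 ± 0.06; edgeR adjusted p = 0.115). Without GSK-A1 replicate 2 it was called higher (0.17; adjusted p = 0.0162). MARS1 on the opposite strand, at 322 CPM, covers 27.2% of the exonic length of DDIT3. NUPR1, a small stress-induced nuclear protein, had 7.05, 8.05 and 7.79 CPM with DMSO and 6.67, 6.12 and 6.91 CPM with GSK-A1 (-0.21 ± 0.09; edgeR adjusted p = 0.087), and was called lower under upper-quartile factors (-0.25; adjusted p = 0.0461). Thus 3 of the 6 factors rose and 1 fell.

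**Figure D2:**
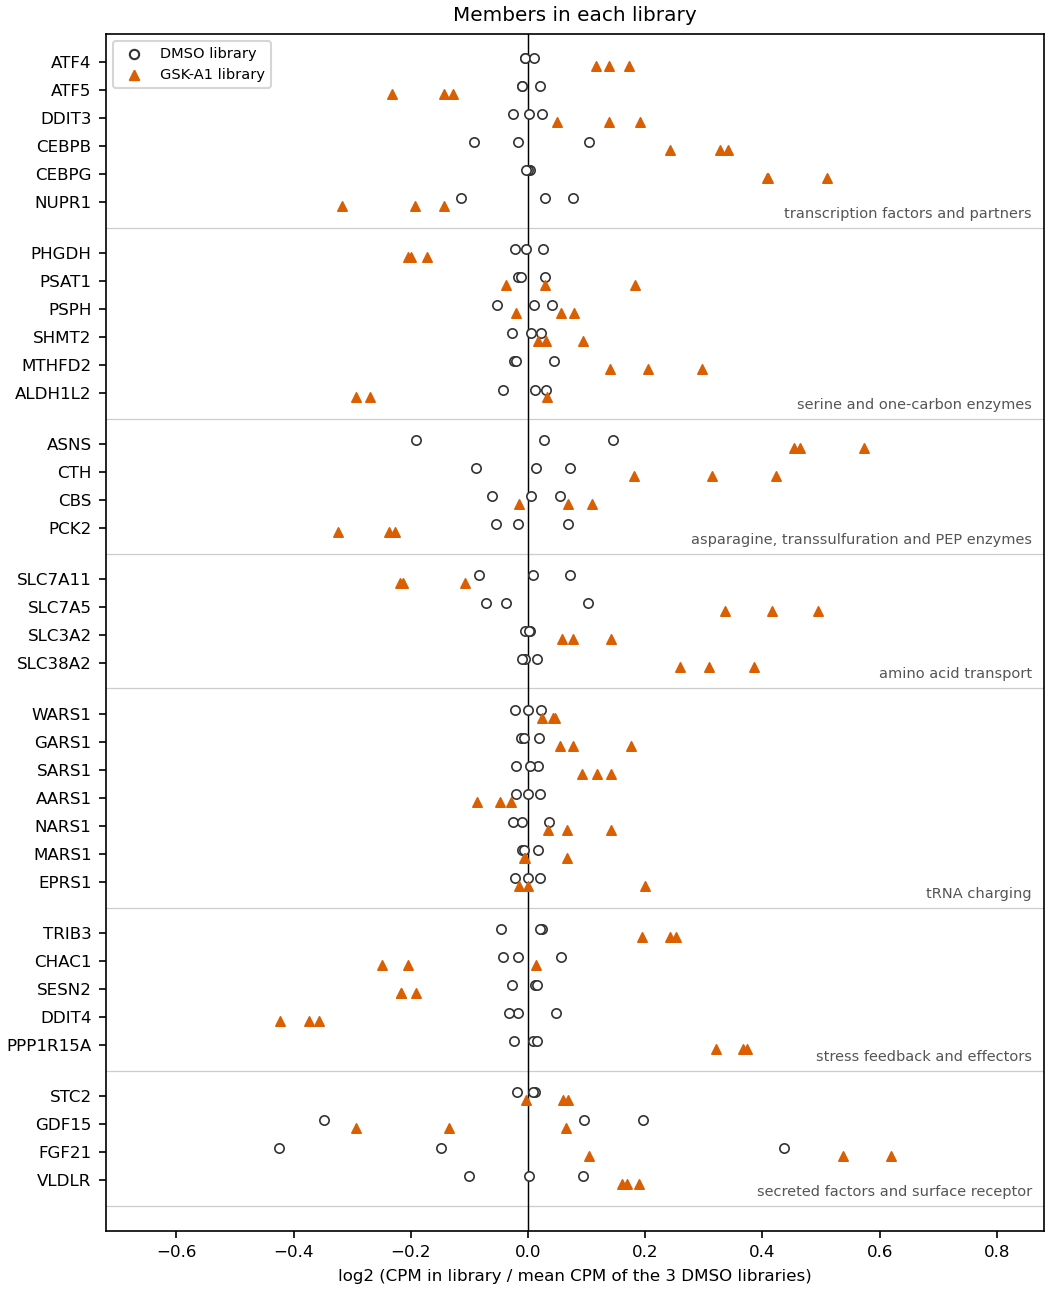
Each member in each library, as the log2 ratio of its CPM to the mean CPM of the 3 DMSO libraries (circles, DMSO; triangles, GSK-A1), grouped by role. For CEBPG, SLC7A5, SLC38A2 and PPP1R15A the triangles lie to the right of the circles, and for DDIT4, PCK2 and PHGDH to the left. The circles of the low-level genes GDF15 and FGF21 are spread the most.

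Serine synthesis and the mitochondrial folate enzymes it feeds showed 1 rise and 1 fall among 6 genes. PHGDH (ENSG00000092621), which catalyses the first step from glycolysis to serine, went from 486, 502 and 493 CPM to 438, 429.8 and 429 CPM. All GSK-A1 libraries were below all DMSO libraries, a fall of 12.5% (log2 fold change -0.19 ± 0.03; edgeR adjusted p = 5.42e-04). MTHFD2 (ENSG00000065911), a mitochondrial one-carbon enzyme, moved the other way, from 268, 281 and 269 CPM to 314, 334 and 300.1 CPM. Its rise was 16.1% (0.22 ± 0.04; edgeR adjusted p = 0.00141), with GSK-A1 replicate 2 the highest library.

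The later enzymes of serine synthesis did not pass the test. PSAT1, the aminotransferase, had 305, 315 and 306 CPM with DMSO and 315, 350.3 and 301 CPM with GSK-A1. Its groups overlapped and the log2 fold change was 0.06 ± 0.05 (edgeR adjusted p = 0.381), and 0.00065 without GSK-A1 replicate 2. PSPH, the phosphatase, had a value of 0.04 ± 0.04 (adjusted p = 0.579). SHMT2, which passes a carbon from serine to folate, stood at 533 ± 9.49 CPM with DMSO and 551 ± 15.9 CPM with GSK-A1 (SD, n = 3; log2 fold change 0.05 ± 0.03, edgeR adjusted p = 0.331). ALDH1L2, a mitochondrial folate dehydrogenase, was low at 2.39 to 2.99 CPM over the 6 libraries (log2 fold change -0.18 ± 0.12; edgeR adjusted p = 0.326).

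Asparagine synthetase and cystathionine gamma-lyase rose. ASNS (ENSG00000070669), which makes asparagine from aspartate and glutamine, went from 5.76, 6.24 and 4.95 CPM to 7.79, 8.41 and 7.74 CPM, with no overlap between groups. The log2 fold change of 0.48 ± 0.09 (edgeR adjusted p = 0.00141), a rise of 39.7%, was the largest of the called members. Its level, 1.27 CPM per kb of exon with DMSO, is uncertain. A gene on the same strand (ENSG00000284707) holds 82.0% of the 50-base stretches found in the longest ASNS transcript. Reads could be assigned to ASNS, to that gene or to neither. That gene stood at 1.89 ± 0.185 CPM with DMSO and 2.08 ± 0.328 CPM with GSK-A1 and was not called (log2 fold change 0.16 ± 0.15; edgeR adjusted p = 0.487).

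CTH (ENSG00000116761), which releases cysteine in the transsulfuration pathway, had 20.2, 18.8 and 21.0 CPM with DMSO and 24.8, 26.8 and 22.7 CPM with GSK-A1. Its rise of 24.1% (log2 fold change 0.31 ± 0.07; edgeR adjusted p = 0.00293) kept the groups apart. CBS, the enzyme before it in that pathway, stood at 20.4, 18.8 and 19.7 CPM and then 21.2, 19.5 and 20.6 CPM, with overlap and no call (0.06 ± 0.06; edgeR adjusted p = 0.519). The near-identical copy LOC102724560 shares 92.3% of the 50-base stretches of CBS and was counted at 11.3 ± 0.510 and 10.9 ± 1.33 CPM (SD, n = 3; log2 fold change -0.04 ± 0.08), so counts of the pair could be split. PCK2, the mitochondrial enzyme that makes phosphoenolpyruvate, fell by 16.6% from 42.9, 46.8 and 44.1 CPM to 38.1, 37.8 and 35.6 CPM (log2 fold change -0.26 ± 0.05; edgeR adjusted p = 0.00132). Each of its GSK-A1 libraries was below each DMSO library.

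In amino acid transport, 2 genes rose and 1 fell. SLC38A2 (ENSG00000134294), which carries small neutral amino acids into the cell with sodium, went from 278, 277 and 282 CPM to 334, 364 and 345 CPM. The rise of 24.7% (log2 fold change 0.32 ± 0.04; edgeR adjusted p = 2.23e-05) was well beyond the spread of the DMSO libraries. SLC7A5 (ENSG00000103257), the light chain of the large neutral amino acid exchanger LAT1, was at 5.76, 5.0999 and 5.22 CPM with DMSO and 7.55, 7.15 and 6.77 CPM with GSK-A1. It rose by 33.6% (0.42 ± 0.09; edgeR adjusted p = 0.00294) from a level of 1.13 CPM per kb of exon. Other genes, chiefly the pseudogene SMG1P3, hold 4.10% of its 50-base stretches. Whether reads of SLC7A5 were lost to them or in another way was not tested, so its level is uncertain.

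SLC3A2 encodes the heavy chain shared by LAT1 and the cystine exchanger, and stood at 24.1 CPM per kb with DMSO. It had 125, 124 and 125 CPM with DMSO and 137, 131 and 129.6 CPM with GSK-A1, above in each library but not called (log2 fold change 0.09 ± 0.04; edgeR adjusted p = 0.0835). Without GSK-A1 replicate 2 it was called higher (0.11; adjusted p = 0.00755). SLC7A11 (ENSG00000151012), the light chain of the cystine and glutamate exchanger, was lower, at 79.2, 71.1 and 75.9 CPM against 64.8, 70.0 and 65.1 CPM. This fall of 11.7% (-0.18 ± 0.05; edgeR adjusted p = 0.013) lost its call when DMSO replicate 1 (adjusted p = 0.0966), DMSO replicate 3 (0.0646) or GSK-A1 replicate 1 (0.0895) was left out. The 2 light chains among the members, SLC7A5 and SLC7A11, therefore had log2 fold changes of opposite sign.

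Of the 7 genes for cytosolic aminoacyl-tRNA synthetases, which load amino acids onto tRNA, 1 was called. DESeq2 called 2, and at an unadjusted p under 0.05 there were 3 higher and 0 lower. SARS1 (ENSG00000031698), the seryl enzyme, had 268, 265 and 261 CPM with DMSO and 287, 292 and 282 CPM with GSK-A1, and rose by 8.45% (0.12 ± 0.03; edgeR adjusted p = 0.0193). The groups did not overlap, but the call was lost under upper-quartile factors (0.08; adjusted p = 0.0961) and after removal of any DMSO library or of GSK-A1 replicate 1 (0.0542 to 0.109). GARS1, the glycyl enzyme, had a value of 0.10 ± 0.04 (adjusted p = 0.0588), with 241, 246 and 242 CPM and 253, 274 and 256 CPM, and was called without a count filter (adjusted p = 0.0471), with DESeq2 (0.0423) and with the replicate number as a block (0.0412). NARS1 (0.08 ± 0.04), EPRS1 (0.06 ± 0.05) and MARS1 (0.02 ± 0.03), for asparagine, for glutamate and proline, and for methionine, were not called. WARS1, the tryptophanyl enzyme, had 78.7, 80.0 and 77.6 CPM and 81.1, 81.3 and 80.1 CPM, without overlap but not called (0.04 ± 0.04; adjusted p = 0.525). AARS1, the alanyl enzyme, was the member of this role with a negative value (-0.05 ± 0.03), at 302, 306 and 311 CPM and 299.99, 288 and 296 CPM. EPRS1 had 1 high library, with 404, 464 and 399 CPM in the GSK-A1 group, and its log2 fold change was -0.0037 without GSK-A1 replicate 2.

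None of the 13 further cytosolic synthetase genes was called by edgeR, where 3 were higher at an unadjusted p under 0.05 and DESeq2 called 1 higher. Their log2 fold changes ran from -0.07 to 0.11 with a median of 0.04, against 0.06 for the 7 members. Of 17 mitochondrial synthetases, 5 were called lower and 0 higher, with a median of -0.09. At an unadjusted p under 0.05, 1 was higher and 6 lower, and DESeq2 called 0 higher and 4 lower. CARS2 (-0.21 ± 0.04; edgeR adjusted p = 0.0022) and LARS2 (-0.18 ± 0.05; adjusted p = 0.0103), the cysteinyl and leucyl enzymes, were among those called lower.

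**Figure D3:**
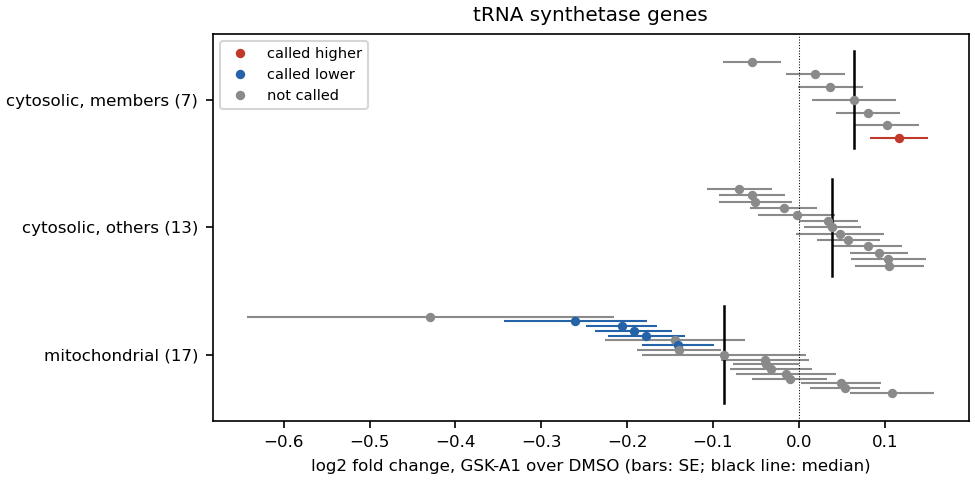
Log2 fold change, GSK-A1 over DMSO, of tRNA synthetase genes with standard errors as bars and the median of each set as a black line. The medians are 0.06 for the 7 cytosolic members, 0.04 for the 13 other cytosolic genes and -0.09 for the 17 mitochondrial genes.

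Genes of stress feedback split into 2 that rose and 2 that fell. PPP1R15A (ENSG00000087074) encodes GADD34, the stress-induced partner of protein phosphatase 1 that removes the phosphate from eIF2. It went from 42.2, 42.4 and 41.2 CPM to 54.0, 52.4 and 54.3 CPM, a rise of 27.8% (log2 fold change 0.35 ± 0.04; edgeR adjusted p = 3.28e-05). TRIB3 (ENSG00000101255), a pseudokinase that restrains ATF4 and the kinase AKT, had 38.6, 38.4 and 36.8 CPM with DMSO and 45.2, 44.8 and 43.4 CPM with GSK-A1 (0.23 ± 0.05; edgeR adjusted p = 0.00188). In both genes the groups were separate.

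DDIT4 (ENSG00000168209), also called REDD1, and SESN2 both restrain the growth kinase complex mTORC1. DDIT4 fell from 166, 173 and 164 CPM to 131, 129 and 125 CPM. Its fall of 23.4% was the largest of the 6 called falls (log2 fold change -0.38 ± 0.04; edgeR adjusted p = 4.15e-06). DDIT4-AS1, which was not among the genes tested, covers 41.2% of the exonic length of DDIT4 on the opposite strand in GENCODE 29. SESN2 (ENSG00000130766) fell from 113, 114 and 110.4 CPM to 96.9, 96.9 and 98.6 CPM (-0.21 ± 0.04; edgeR adjusted p = 8.77e-04), again with no overlap. CHAC1, an enzyme that breaks down glutathione, had 18.0, 17.1 and 16.8 CPM with DMSO and 15.04, 14.6 and 17.5 CPM with GSK-A1. GSK-A1 replicate 3 lay within the DMSO range, and the difference was not called (-0.15 ± 0.07; edgeR adjusted p = 0.142), though it was without that library (-0.22; adjusted p = 0.0249).

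Among the secreted factors and the receptor, 1 of 4 was called. VLDLR (ENSG00000147852), a lipoprotein receptor, had 23.2, 26.6 and 24.9 CPM with DMSO and 28.0, 27.8 and 28.4 CPM with GSK-A1 (log2 fold change 0.17 ± 0.06; edgeR adjusted p = 0.0344). That call was lost under upper-quartile factors (adjusted p = 0.099) and after removal of DMSO replicate 1 (0.189) or 3 (0.102) or of GSK-A1 replicate 1 (0.0765) or 3 (0.0641). STC2, a secreted glycoprotein, had a value of 0.04 ± 0.04 (adjusted p = 0.476). FGF21 and GDF15, secreted hormones known as markers of this response, were low. FGF21 had 0.980, 1.19 and 1.78 CPM with DMSO and 1.91, 2.02 and 1.41 CPM with GSK-A1, or 47 to 89 counts per library, and its log2 fold change of 0.496 ± 0.20 was not called (edgeR adjusted p = 0.0921). It was called without a count filter (0.51; adjusted p = 0.0367), after removal of DMSO replicate 3 (0.73; 0.0284) and after that of GSK-A1 replicate 3 (0.63; 0.0316). GDF15, at 31 to 62 counts per library, had a value of -0.13 ± 0.19 (adjusted p = 0.666), and its standard error was larger than the fold change.

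**Figure D4:**
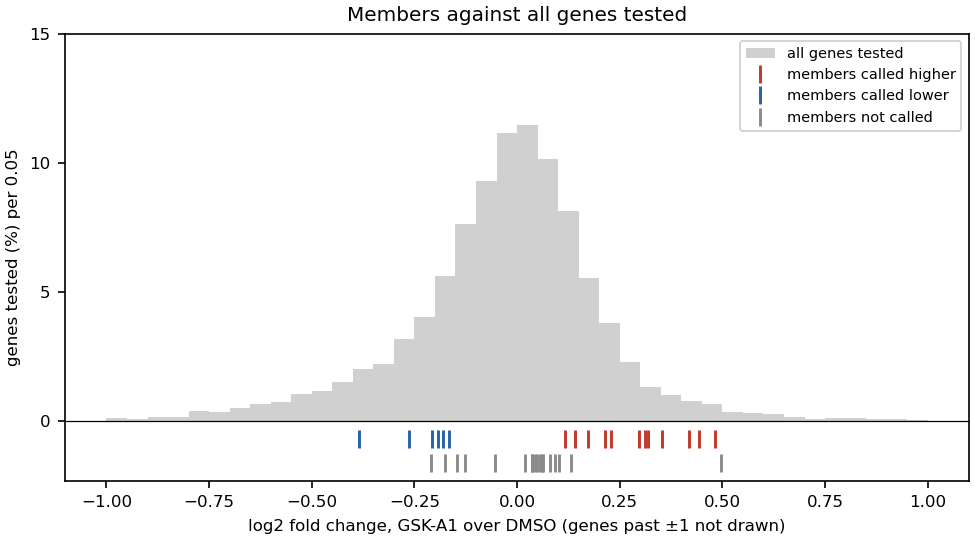
Distribution of the log2 fold change over the 16754 genes tested (grey bars, percent of genes per bin of 0.05) with 1 tick per member under it, red for called higher, blue for called lower and grey for not called. The members lie between -0.38 and 0.496, and 15596 of all genes tested lie within 0.5 of 0.

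Genes upstream of ATF4 were read from lists of the pathway that hold no member. Of the 4 kinases of eIF2, EIF2AK3 (PERK, the sensor of unfolded protein in the endoplasmic reticulum) was called higher, going from 24.3 ± 0.305 to 30.1 ± 1.88 CPM (SD, n = 3; log2 fold change 0.31 ± 0.05; edgeR adjusted p = 9.10e-04). EIF2AK1 (0.02 ± 0.03), EIF2AK2 (0.06 ± 0.04) and EIF2AK4 (0.05 ± 0.04), the heme, double-stranded RNA and amino acid sensors, were not called. OMA1 (-0.30 ± 0.06; adjusted p = 0.00326), a mitochondrial protease that relays stress to EIF2AK1, and IMPACT (-0.18 ± 0.05; adjusted p = 0.0188), an inhibitor of EIF2AK4 activation, were called lower. Of 12 genes for eIF2, its exchange factor eIF2B and their partners, edgeR and DESeq2 each called 5 higher and 0 lower, as did an unadjusted p under 0.05. PPP1R15B, the constitutive counterpart of PPP1R15A, led them, from 142 ± 2.58 to 181 ± 7.45 CPM (0.35 ± 0.04; edgeR adjusted p = 1.28e-05), so both phosphatase partners rose. By p-value, EIF2A (0.18 ± 0.04; adjusted p = 0.00469), an initiation factor apart from the eIF2 complex, and EIF2S2 (0.16 ± 0.04; adjusted p = 0.00486), the beta subunit of that complex, came next. EIF2S1, the alpha subunit that the kinases phosphorylate, also rose (0.20 ± 0.05; edgeR adjusted p = 0.00683) and is named here after its value was seen.

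Partner factors and further targets outside the 36 gave mixed counts. Of 8 other leucine zipper factors, 3 were called higher and 1 lower. DESeq2, which gave 6 of the 8 an adjusted p, called 2 higher and 0 lower, and an unadjusted p under 0.05 gave 3 in each direction. ATF3, an early stress factor that ATF4 and growth signalling can both raise, went from 89.8 ± 1.66 to 158 ± 6.05 CPM (0.82 ± 0.04; edgeR adjusted p = 4.66e-10), a larger change than that of any of the 36. MAFG (0.42 ± 0.06; adjusted p = 2.11e-04) and FOSL1 (0.81 ± 0.24; adjusted p = 0.024, at under 1 CPM on average) were also higher. Of 19 further genes known as ATF4 targets, 17 were tested, and PYCR1 (0 counts in 5 of 6 libraries) and SLC7A3 (at most 0.117 CPM) were too low. Whether their reads were lost to other genes was not tested. Of the 17, edgeR called 7 higher and 0 lower. DESeq2 called 8 higher and 0 lower, and an unadjusted p under 0.05 gave 10 higher and 2 lower. The edgeR calls include the transporters SLC38A1 (0.24 ± 0.04; adjusted p = 2.14e-04) and SLC7A1 (0.19 ± 0.03; adjusted p = 7.93e-04) and the tRNA exporter XPOT (0.16 ± 0.04; adjusted p = 0.00447). The other branches of the unfolded protein response had 4 called higher and 4 lower of 12. DESeq2 called 4 higher and 2 lower, and an unadjusted p under 0.05 gave 6 higher and 5 lower. ATF6 (0.28 ± 0.04; adjusted p = 2.48e-04) and XBP1 (0.26 ± 0.04; adjusted p = 7.93e-04), factors of those branches, were higher. ATF6B, a relative of ATF6 counted above among the 8 leucine zipper factors, was called lower (-0.15 ± 0.05; edgeR adjusted p = 0.0345). It is named here after its value was seen. CRELD2 (-0.27 ± 0.06; adjusted p = 0.00387), a secreted chaperone-like protein, was lower. The chaperone HSPA5 was not called (0.11 ± 0.04; adjusted p = 0.0827).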

How the data were processed

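RNA from 6 libraries, 3 per group, was sequenced on an Illumina HiSeq after a stranded TruSeq preparation, per the labels' protocols. The deposited table holds the authors' raw counts per gene. The submitters' processing notes name cutadapt 5.1, STAR 2.7.11b, featureCounts, Subread 2.1.1, DESeq2 1.38.0 and the build GRCh38.p13. Annotation release, strand setting and filters are not given in the sources used here. Totals ranged from 33040178 to 47777233 counts, without molecular identifiers, so errors come from replicates.

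Counts were tested across all genes with edgeR 4.0.16 in R 4.3.3 (filterByExpr with a smallest count of 10 and total of 15, TMM, robust quasi-likelihood F test, Benjamini-Hochberg over 16754 genes, called under 0.05). Values in CPM use TMM-scaled totals. The standard error is the log2 coefficient over the square root of F. Levels per kilobase, exon overlaps and shared 50-base stretches used GENCODE 29. On simulated counts for 16754 genes, 67% of changes of 0.5 and 90% of changes of 1 (log2) were recovered, and 6.55% of calls were unchanged genes. The simulation changed 100 genes at each size, far fewer than were called in these data. Each of the 36 members changed by less than 0.5, so recovery at their sizes was not tested. The members and lists were chosen with earlier results of these data known. All members are accounted for. From each further list up to 3 called genes with the smallest p-values were named, plus ATF3, the 4 eIF2 kinases and HSPA5, and 1 gene that this rule names is not reported here. The alternatives were RLE and upper-quartile factors, no count filter, DESeq2 1.42.0, the replicate number as a block, and leaving out each of the 6 libraries.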

Additional observations from a re-analysis of the deposited data

How the results depend on the processing

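The 18 members called became 18 under RLE factors, 17 under upper-quartile factors, 19 without a count filter, 18 with DESeq2, 19 with the replicate block (13 higher, 6 lower) and 14 to 20 with 1 library left out. The lowest counts came without DMSO replicate 1 or GSK-A1 replicate 1, and the highest without GSK-A1 replicate 2. Of the 18, 14 kept their call and direction in all 11 alternatives and 4 (ATF5, SLC7A11, SARS1 and VLDLR) lost it in some. Among the 18 not called, 6 were called in some alternative and 12 in none. The replicate block changed 1 member's call, that of GARS1, and 24.6% of all genes were called with it against 22.9% without. Deviations of same-numbered libraries had correlations of 0.011, 0.019 and 0.032, and those of other pairs lay between -0.033 and 0.012. These correlations span all genes tested, low counts included, and do not settle whether the numbers pair the libraries. The median log2 fold change of the members was 0.06, 0.0211 under upper-quartile factors, where the median of all genes was -0.05, and 0.0607 to 0.107 with 1 library left out, the highest without GSK-A1 replicate 3. Signs near 0 turned under upper-quartile factors for PSPH (-0.0033), WARS1 (-0.0038) and MARS1 (-0.022), and without GSK-A1 replicate 2 for EPRS1 (-0.0037 to 0.106 with 1 library left out). The cause was not tested. GDF15, FGF21 and ALDH1L2 had the lowest levels of the members and the largest standard errors, and the part of depth in their missing calls was not tested. Whether reads were split between genes was not tested for ASNS and CBS.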
